A study of Myzus persicae with 4 samples.

Results

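Most targets on this array of the aphid Myzus persicae are known only by a contig number, and 194 of its 10489 targets carry a sequence accession or a clone name instead. These 194 named targets were taken as every non-control target whose identifier does not start with "contig", and each had 1 probe. RNA came from heads of aphids moved from cabbage to a liquid diet of sucrose and amino acids, on which they fed for 24 h. The nicotine group had 100 µM nicotine in that diet and the control group had the same diet without it. Each of 3 biological replicates paired nicotine and control RNA on an array, in separate dyes, and replicate 2 was hybridised again on 1 repeat array, for 4 arrays in all. Nicotine RNA carried the green-channel Alexa Fluor dye in replicates 1 and 3 and the red-channel one in replicate 2. The labels give no strain, age or number of aphids per replicate. A p-value here reflects only these 3 replicates, with each probe's spread between them drawn by limma toward that of all tested probes.

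Myzus persicae feeds on plant sap and is called the tobacco aphid in the series' title. Nicotine is a plant alkaloid that activates nicotinic acetylcholine receptors, which carry fast excitatory transmission in the insect brain. In tobacco-adapted lines of this aphid, raised production of a cytochrome P450 enzyme that breaks nicotine down is known to contribute to tolerance. Heads hold the brain, eyes and antennae.

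Sequence databases give accession prefixes DW and EB to expressed sequence tags, single reads from the end of a cDNA clone. The prefixes AJ, AY, DQ, EF and X belong to direct submissions, which are kept apart from these tags. By prefix, 152 of the named targets had a DW accession, 9 an EB accession, 22 a directly submitted accession and 11 a clone name beginning with FB or GUT. The 4 kinds also differed in the probe list their probe names carried, so prefix and probe list cannot be told apart. By identifier, no named target (0 of 194) matched a gene of the RefSeq table (assembly MPER_G0061.0). Sequences were not compared, and accessions and clone names differ in form from gene identifiers. The 0 therefore does not show that their genes are missing from that table. No gene name stands beside these identifiers in the files. What each target encodes is therefore not stated here, the tissue could not be checked against marker genes, and no probe sequence is shown.

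In signal, the named targets lay at both ends of the array's range, and the DW accessions held most of the bright ones. The level used is the mean log2 of the scanner's processed signals over both diets and the 3 replicates. It depends on the probe as well as on the amount of RNA, so an order of levels is an order of probe signals. The median level was 10.27 for the 194 named targets (percentile 68.7 among all 14628 probes) and 8.95 for the 14434 contig probes. Above the 99th percentile lay 36 of 194 named targets (18.6%), against 111 of 14434 contig probes (0.769%). All 36 had DW accessions. Below the 25th percentile lay 56 named targets (28.9%), against 24.9% of contig probes.

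The kinds of identifier differed in level. The DW accessions had a median level of 12.24, with a range from 3.28 to 16.08. The FB and GUT clones had a median of 9.21, the EB accessions 7.59 and the directly submitted accessions 5.12. Among the directly submitted accessions 16 of 22 (72.7%) were below the 25th percentile, and DQ108937.1 alone lay above the 90th percentile. These levels are a description of the probes, and the difference between kinds was not tested.

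**Figure D1:**
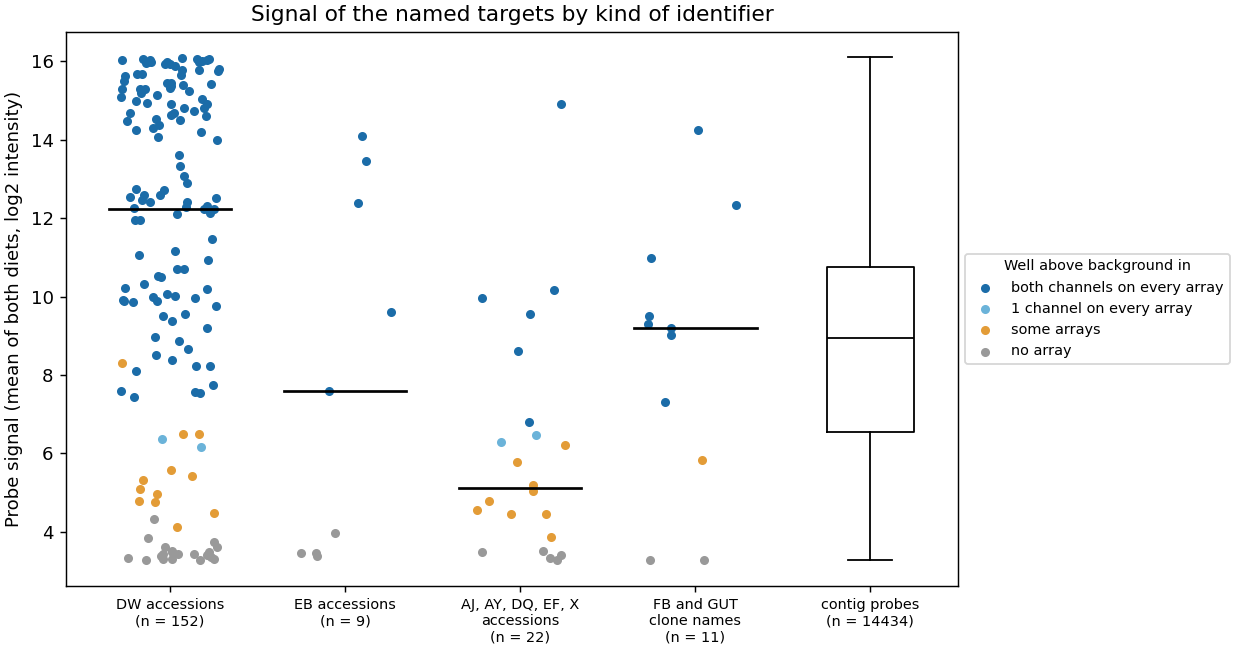
Each point is the probe of a named target, placed by its level (mean log2 intensity of both diets over 3 replicates) and grouped by kind of identifier, with black lines at the group medians. Colours show where the scanner marked the probe well above background, and the box shows the quartiles and full range of the 14434 contig probes. The DW accessions crowd the top of the range, and the grey points at the bottom of every kind were above background on no array.

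Most named targets gave a measurable signal in the head. The scanner marked 141 of 194 (72.7%) as well above background in at least 1 channel on every array, and 137 (70.6%) in both channels on every array. The shares were 75.1% and 70.2% for contig probes. Another 22 named targets were above background on some arrays, and 31 (15.98%) on none, against 10.1% of contig probes on none. By array, between 144 (74.2%, repeat array) and 162 (83.5%, replicate 3) of the 194 were above background, and for contig probes between 78.2% and 88.2%. By kind, 120 of 152 DW accessions, 5 of 9 EB accessions, 8 of 22 directly submitted accessions and 8 of 11 clones were above background on every array. No named target (0) was marked as an outlier or as saturated, so 141 entered the test of diet.

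The comparison of diets asked whether a named target had a different level in heads of nicotine-fed and control aphids. No named target passed the test. In limma fitted over all 10964 tested probes, 0 of 141 had an adjusted p under 0.05 in either direction, against a background of 0% of all tested probes higher and 0% lower. The lowest adjusted p was 0.9998. Before adjustment 0 of 141 had p under 0.05 in limma, where 0.374% of all tested probes did. Both shares are below the proportion of 0.05 that this threshold would pass if no probe differed. The test thus called very little on this array, and a count of 0 does not show equal levels. The median over the 141 targets of the mean log2 ratio of nicotine over control was -0.14, against -0.05 over all tested probes. It was -0.0321 without replicate 2. For 73 of the 141 (51.8%) the whole 95% interval was within 2-fold of equal levels, as for 53.3% of all tested probes. For the rest the interval reached past 2-fold in at least 1 direction.

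The ratios of the named targets were repeatable on the repeat array but not across biological replicates. Between replicate 2 and its repeat array, they correlated at 0.979 across the 141 probes (Spearman 0.970) and at 0.987 across all tested probes, and the arrays share RNA and dye orientation. The median absolute difference between these arrays was 0.06 on the log2 scale, against 0.04 over all tested probes. The median SD between the 3 replicates, a different measure of spread, was 0.45, against 0.52. Between replicates 1 and 2 the correlation across the 141 probes was -0.35 and between replicates 2 and 3 it was -0.56, with -0.24 and -0.43 across all tested probes. Between replicates 1 and 3, which share a dye orientation, it was -0.0084, where all tested probes gave -0.20. These correlations describe probes of the same arrays and carry no test.

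**Figure D2:**
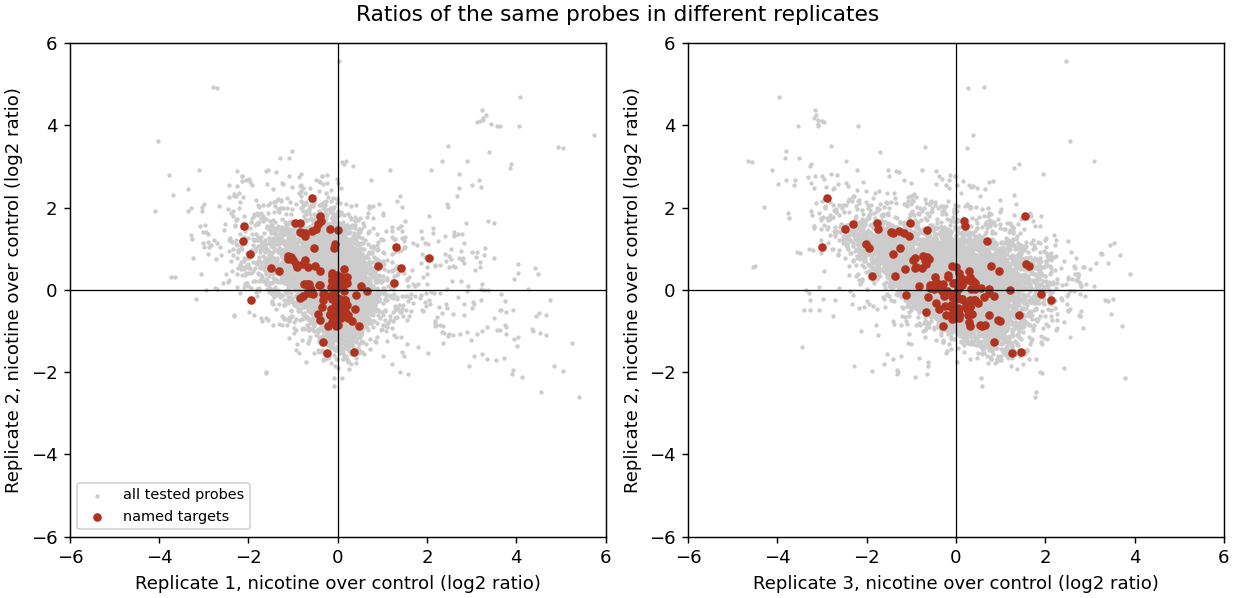
Log2 ratios of nicotine over control in replicate 2 (vertical axes) against replicate 1 (left) and replicate 3 (right), for the 141 tested named targets in red and all 10964 tested probes in grey. Points run from upper left to lower right in the plot against replicate 3, where the named targets correlated at -0.56.

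Large ratios within single replicates were about as frequent among named targets as on the whole array. In replicate 1, 4 of 141 (2.84%) were at least 2-fold higher with nicotine and 10 (7.09%) at least 2-fold lower, against 2.86% and 6.36% of all tested probes. In replicate 2, 20 (14.2%) were at least 2-fold higher and 3 (2.13%) lower, against 10.4% and 2.65%. In replicate 3, 9 (6.38%) were higher and 20 (14.2%) lower, against 8.55% and 13%. The balance of directions therefore turned from replicate 2 to replicate 3, among all tested probes as well as among named targets. Replicate 1 leaned the same way as replicate 3, and the dyes were exchanged in replicate 2 alone. All 20 targets at least 2-fold higher in replicate 2 were among the 120 tested with DW accessions.

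**Figure D3:**
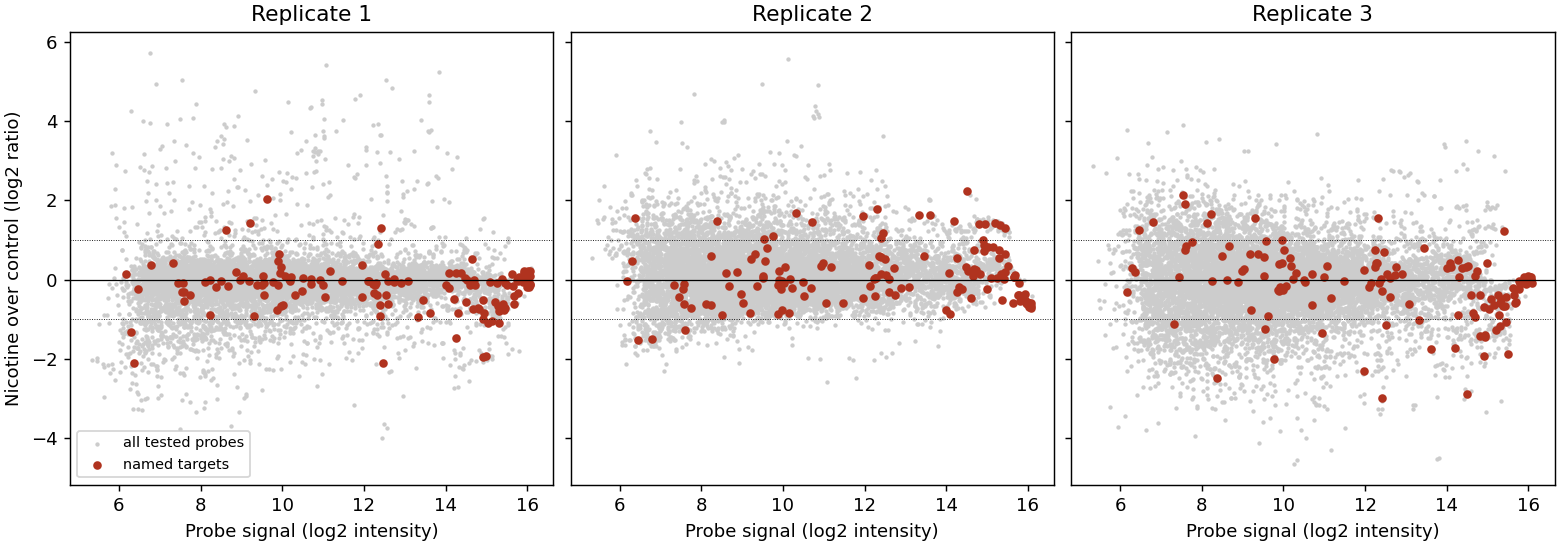
Log2 ratio of nicotine over control against level for each replicate, with the 141 tested named targets in red, all 10964 tested probes in grey, and dotted lines at a 2-fold difference. At the bright end of replicate 2 the named targets fan out above and below 0, and those with the highest signal lie below it.

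Only 20 of 141 named targets (14.2%) had 1 sign in all 3 replicates, where 9.76% of all tested probes did. Of these, 4 (2.84%) were higher with nicotine and 16 (11.3%) lower, against 3.62% and 6.14% of all tested probes. The 16 include bright targets with some ratios very near 0, such as DW362117.1 at -0.0020, -0.69 and -0.01. All 20 had DW accessions, as had 120 of the 141 tested. The number with 1 sign was 17 with normexp and loess, 15 with the authors' deposited table and 23 without the repeat array. The 9.76% is not the background of these settings, for which no share is given. With smallest p among those higher, DW362095.1 had signals of 17382, 14571 and 26378 with nicotine and 15551, 13059 and 19620 without it in replicates 1, 2 and 3. These signals overlapped between the diets, and signals were not scaled between arrays. The log2 ratios of DW362095.1 were 0.16, 0.16 and 0.43, with a mean of 0.25 ± 0.15 (SD, n = 3; limma adjusted p = 0.9998) and of 0.16 without replicate 3. For DW362522.1 the ratios were 0.03, 0.31 and 0.31, with a mean of 0.22 ± 0.16 (SD, n = 3; limma adjusted p = 0.9998). With normexp and loess, replicate 2 turned to -0.02 for DW362095.1 and -0.08 for DW362522.1, so neither then had 1 sign throughout. The mean of DW362522.1 was then 0.06, and 0.09 in the authors' deposited table.

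Among the targets lower in every replicate, DW362526.1 had the smallest p, with signals of 631, 837 and 1041 with nicotine and 1079, 921 and 1245 without it. The diets overlapped in signal, and each replicate's nicotine value was below its own control. Its log2 ratios were -0.77, -0.14 and -0.26, a mean of -0.39 ± 0.34 (SD, n = 3; limma adjusted p = 0.9998), with a 95% interval from -1.08 to 0.30. Without replicate 1 the mean was -0.20. For DW362322.1 the signals were 21131, 23528 and 21558 with nicotine and 23429, 32655 and 28165 without. Its ratios of -0.15, -0.47 and -0.39 gave a mean of -0.34 ± 0.17 (SD, n = 3; limma adjusted p = 0.9998), with an interval from -0.95 to 0.28. Both intervals include 0, and both targets were picked for their sign and small p. The smallest p of any named target belonged to DW362590.1, at 0.121 before adjustment in limma, with signals of 7279, 9516 and 5302 with nicotine and 9540.46, 2749.86 and 1812 without it. Its log2 ratios of -0.39, 1.79 and 1.55 did not share a sign.

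The brightest named targets shared a profile across replicates. Of the 20 brightest probes of the array 15 belonged to named targets, and 32 of the 100 brightest did. The brightest, DW362583.1, had signals of 63391, 57753 and 66107 with nicotine and 68695, 94430.1 and 70126 without it, and the diets did not overlap. Its log2 ratios were -0.12, -0.71 and -0.09. The next in level, DW362022.1, had ratios of 0.08, -0.68 and 0.06, and DW362408.1 had -0.13, -0.59 and -0.02. For DW362445.1 they were 0.22, -0.68 and -0.01, and for DW362194.1 they were -0.18, -0.61 and 0.08. In all 5 the ratio lay between -0.18 and 0.22 in replicates 1 and 3 and at -0.59 or lower in replicate 2. The median absolute ratio over all tested probes was 0.19 in replicate 1.

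Replicate 2 had the lowest ratio in 19 of the 20 brightest named targets, a number set after the values were seen. The other, DW361691.1, had ratios of -0.34, -0.09 and -0.03. The share of all tested probes with their lowest ratio in replicate 2 is not given, so the 19 has no background. In replicate 2 all 20 were below 0, from -0.71 to -0.09 with a median of -0.59, and 20 of 20 were below 0 on each of its arrays. Over all tested probes 46.4% were below 0 in replicate 2. In replicate 1 the 20 ranged from -0.34 to 0.22 (median 0.03) and in replicate 3 from -0.24 to 0.08 (median -0.02). Contig probes as bright as these 20 were few and lay on the same side in replicate 2. Of 8 such contig probes 7 were below 0 in replicate 2, with a median of -0.51, and their medians were -0.14 and -0.05 in replicates 1 and 3. Above the 99th percentile, a lower bound on level, 97 of 111 contig probes (87.4%) and 14 of 36 named targets (38.9%) were above 0 in replicate 2. The medians there were 0.43 and -0.43, where 20 of the 36 named targets and 8 of the 111 contig probes were in the brightest range. With normexp and loess the 20 targets kept medians of -0.07, -0.54 and 0.06, and 20 of 20 stayed below 0 in replicate 2. The highest median spot intensity of a named target was 239132 in green and 436643 in red, below the scanner's saturation values of 778500 and 778087. Whether signal near the top of the range lost proportion to the RNA was not tested.

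The next 20 in level were spread more widely and ran in the opposite sense. In replicate 2, 17 of these 20 were above 0 (median 0.17, highest 1.43), and in replicates 1 and 3 18 of 20 were below 0 (medians -0.61 and -0.59). Over all tested probes, 53.6% were above 0 in replicate 2, and 58.0% and 52.2% were below 0 in replicates 1 and 3. The medians of these 20 lie on the same side of 0 as those of the 111 contig probes above the 99th percentile, at -0.50, 0.43 and -0.58. The ratios of the 36 named targets above that percentile thus held both profiles. The 22 with a ratio below 0 in replicate 2 had medians of 0.04 in replicate 1 and -0.03 in replicate 3, and the 14 above 0 had -0.61 and -0.59.

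**Figure D4:**
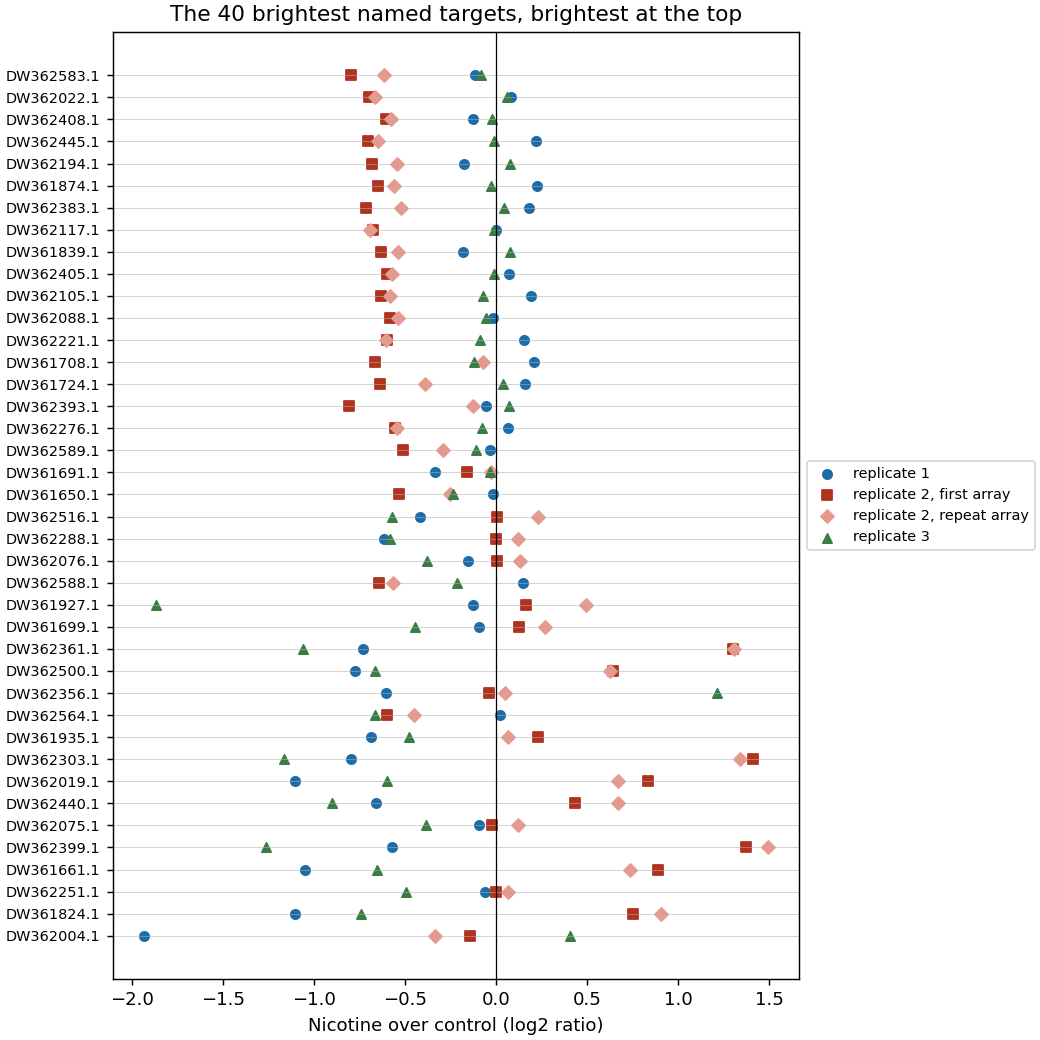
Log2 ratios of nicotine over control for the 40 named targets with the highest signal, brightest at the top, with a symbol for each of the 4 arrays. In the upper 20 both arrays of replicate 2 lie left of 0, and in 18 of them left of replicates 1 and 3 as well. No background share is given for the 18. Many of the lower 20 have replicate 2 on the right and replicates 1 and 3 on the left.

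Of the 141 named targets, 19 (13.5%) were at least 2-fold higher with nicotine in 1 replicate and at least 2-fold lower in another, against 10.5% of all tested probes. With normexp and loess the count was 12, with no background share given for that setting. The brightest of them, DW362361.1, had signals of 40643, 54460 and 33756 with nicotine and 67461, 22049 and 70504 without it. Nicotine signal was thus the lower of the pair in replicates 1 and 3 and the higher in replicate 2. Its log2 ratios were -0.73, 1.30 and -1.06. The ratios of DW362303.1 were -0.80, 1.38 and -1.17, and those of DW362399.1 were -0.57, 1.43 and -1.27. These 3 had nearly the same profile as each other.

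This lower, higher, lower pattern was that of 14 of the 19 targets, and of 35 of all 141 (24.8%), against 21.3% of all tested probes. Because the dyes were exchanged in replicate 2, it means more red than green signal in every replicate. Counting also the reverse pattern, 47 of 141 (33.3%) kept 1 red over green sign, against a background of 35.1%. The count depended on the processing: it was 60 with normexp and loess and 62 with the authors' deposited table. No background share is given for those settings. The part of the dye in these ratios was not tested.

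The largest spread between replicates was that of DW361682.1. Its signals were 29683, 45443 and 6033 with nicotine and 44036, 9609 and 44871 without, so the nicotine channel was lowest in replicate 3 and the control channel in replicate 2. The log2 ratios were -0.57, 2.24 and -2.89, and the SD was 2.57 (n = 3). Next was DW361825.1, with signals of 9981, 10512 and 1222 with nicotine and 4059, 5064 and 9824 without. Its ratios of 1.30, 1.05 and -3.01 made it the only named target (1 of 141, 0.709%) at least 2-fold from 0 in every replicate, against 1.55% of all tested probes. On all 4 arrays, both targets passed the scanner's background test in both dyes.

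The 21 tested targets without a DW accession were few enough to be described singly, a choice made after their values were seen. None (0 of 21) had 1 sign in all replicates, where 9.76% of all tested probes did, and 21 targets are too few to set apart from that share. Among the directly submitted accessions the brightest was DQ108937.1, with signals of 13809, 48361 and 18912 with nicotine and 53915, 26383 and 50269.9 without it. Control signal was higher in replicates 1 and 3 and nicotine signal in replicate 2, with log2 ratios of -1.97, 0.87 and -1.41. For X81888.1 the ratios were 0.01, -0.85 and 0.55, and for AJ880084.1 they were 0.31, -0.76 and 0.99. Both had their lowest ratio in replicate 2 and their highest in replicate 3.

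AJ236788.1 had that same order with larger steps, at 0.36, -1.50 and 1.46. Its signals were low, at 134, 84.3 and 136 with nicotine and 104, 238 and 49.4 without. X81887.1 gave -0.23, -1.54 and 1.26, but its nicotine channel was above background on only 2 of 4 arrays, so these ratios are approximate. The order was different for AJ251838.1, at -0.40, 0.47 and 0.96, and for AJ310563.1, at 1.26, 0.17 and -0.02. The ratios of AJ131760.1 were -1.32, 0.47 and 0.29, and they are approximate too, since each channel was above background on only 3 of 4 arrays.

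Of the 9 EB accessions, 5 were tested. The ratios of EB714324.1 stayed within 2-fold of 0, at -0.22, -0.88 and 0.30, as did those of EB714319.1, at -0.52, 0.58 and 0.79, and EB714311.1, at -0.92, 0.56 and 0.0047. EB714321.1 had signals of 2482, 1965 and 194 with nicotine and 601, 1141 and 366 without it. Its ratios of 2.05, 0.78 and -0.91 included the highest in a single replicate among the 21 tested targets without a DW accession. EB714314.1 was near 0 in replicate 2 and higher with nicotine in replicate 3 alone, at -0.55, -0.11 and 1.90. The remaining 4 EB accessions were above background on no array.

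The clone names gave 8 tested targets. The brightest was FB51CP, with signals of 9595, 27367 and 15163 with nicotine and 26888, 18936 and 28459 without. Its ratios of -1.49, 0.53 and -0.91 had the signs of DQ108937.1 in each replicate. GUT71CP was higher with nicotine in replicates 1 and 2 and near 0 in replicate 3, at 0.90, 0.58 and -0.08. FB2bCP, at 1.43, 0.53 and -0.77, and FB1816RPVRTD, at -0.93, 0.64 and 1.56, ran in opposite directions in replicates 1 and 3. The ratios of FB648PAVRTD, FB44CP and FB1266PAVRTD all lay between -0.60 and 0.56. FB647PAVRTD gave 0.42, -0.13 and -1.12. What the letters of these clone names stand for is not given in the sources used here.

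**Figure D5:**
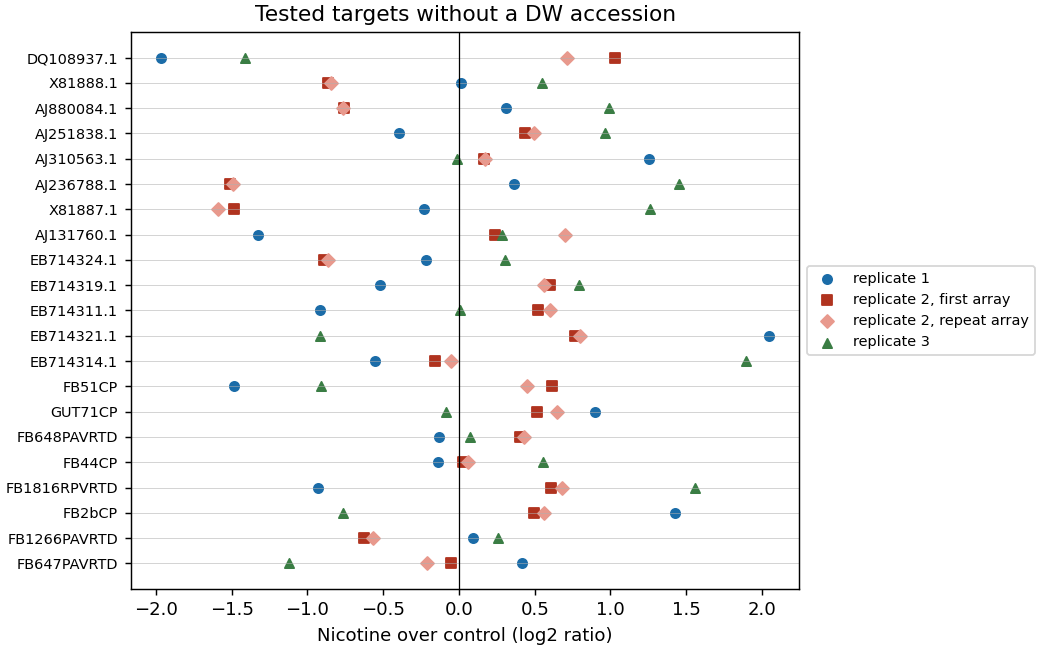
Log2 ratios of nicotine over control for the 21 tested targets without a DW accession, with a symbol for each of the 4 arrays. They are ordered by kind of identifier (directly submitted accessions, EB accessions, then clones) and by level within a kind. The arrays of replicate 2 lie close together, and no target has all its symbols on 1 side of 0.

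The 53 remaining named targets were too dim to test and get no fold. In 4 of the 22 above background on some arrays the nicotine channel was above background on 1 array and the control channel on none (EF174335.1, AJ880086.1, DW361696.1 and DW362510.1). In 2 others, DW361957.1 and AJ310564.1, it was the control channel alone, on at most 2 arrays. The 31 targets above background on no array had median ratios of 0.31, -0.72 and 0.05 in replicates 1, 2 and 3. With both channels at background, these ratios are no measure of the diet.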

How the data were processed

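Two-colour arrays of aphid head RNA were analysed from the scanner files. Processed and median spot intensity values in the deposited files came from Agilent Feature Extraction 10.1.1.1, which had background-subtracted, detrended and dye-normalized the processed ones, per the file headers. The deposited log10 ratio of red over green was not used. The authors' deposited table holds log2 ratios, and the submitters' processing notes name limma. Its columns correlated at 0.999 with ratios computed here by normexp (offset 50) and loess, so it was read as red over green before the sign was turned. Its medians were -0.0162, -0.00214, -0.0034 and 0.0040 for replicates 1, 2 and 3 and the repeat array. The background correction behind it is not given in the sources used here.

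Log2 ratios of processed signals were centred on each array's median over non-control probes, turned by the dye labels, and averaged over replicate 2 and its repeat array (n = 3). Printed signals are the processed intensity values after that centring. Probes above background in at least 1 channel on every array, without outlier flags, were fitted in limma 3.58.1 (R 4.3.3) by an intercept model with Benjamini-Hochberg adjustment over all 10964. Its p-values and intervals rest on variances moderated across the fitted probes by eBayes. The fit was also run on simulated data, in which replicates were drawn independently of each other. The measured ratios correlated negatively between some replicates, so that run does not show how the fit performs on them. All 4 arrays had 1 scan time in the headers, so there was no scan batch to test. The members and rules were chosen with earlier results of these data known. Singled out by rule were the 5 brightest targets, the 2 higher and 2 lower in all replicates with smallest p, the 2 with largest SD, and the 3 brightest opposed at 2-fold. All other named targets were chosen after their values were seen.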

Additional observations from a re-analysis of the deposited data

How the results depend on the processing

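None of 11 alternatives called a named target (0 at a limma adjusted p under 0.05): the smallest adjusted p was 0.9987, reached without replicate 2, where diet and dye cannot be told apart. The smallest unadjusted p of each alternative lay between 0.0109, also without replicate 2, and 0.124. The 4 targets with 1 sign and smallest p kept the direction of their mean in all 11. They were picked for 1 sign in every replicate, so settings that reuse the same ratios could hardly turn it. Only normexp and loess and the authors' deposited table recomputed the ratios. The median of the mean log2 ratios lay between -0.152 and -0.0321 when a replicate was left out, lowest without replicate 3 and nearest 0 without replicate 2. In the other settings it lay between -0.163 and -0.0778. The correlation between replicates 1 and 3, -0.0084 as reported, turned to 0.0377 with normexp and loess, 0.0266 with the authors' deposited table, 0.0228 with all probes, 0.0090 with both channels above background and 0.0499 by Spearman, so its sign has no meaning here. The other pairs stayed between -0.432 and -0.324 (replicates 1 and 2) and between -0.562 and -0.471 (2 and 3). The count of targets opposed at 2-fold, 19 as reported, was 12 with normexp and loess and between 13 and 20 otherwise. The cause was not tested, and no background share is given for these settings. Settings for such counts and the setting of both channels for the correlations were chosen after seeing the data. The dye term leaves 1 residual degree of freedom. Signal near background keeps 53 named targets untested. Both diets shared each array, so every fit was within pairs.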
